A study of Mus musculus with 7 samples.

Results

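Expression of 10 transcription factors of Müllerian duct and uterine patterning (Msx1, Msx2, Emx2, Pax2, Pax8, Lhx1, Gata2, Wt1, Hand1 and Sox17) was examined by RNA sequencing of whole mouse uterus. The members were taken by gene symbol, and all 10 were among the 24964 genes of the deposited table. All mice were 12 weeks old, were in diestrus (a phase of the estrous cycle) and carried a Pgrcre/+ allele. This allele expresses Cre recombinase from the progesterone receptor gene in the cells that use that gene. The 3 control libraries (replicates 1, 2 and 4) had the genotype Pgrcre/+. The other 4 libraries (replicates 1 to 4) had the genotype Pgrcre/+Foxl2LsL/+ and are named by their label, Foxl2-LSL. The title of the study speaks of overexpression of FOXL2, a forkhead transcription factor. The labels do not spell out the abbreviation, nor do they say whether each library came from 1 mouse, so p-values measure the spread between these libraries.

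The Müllerian ducts are the embryonic tubes that become the oviducts, the uterus and the upper vagina. The LIM homeodomain factor Lhx1, the paired-box factors Pax2 and Pax8, the homeodomain factor Emx2 and the zinc finger factor Wt1 act when the urogenital ridge and its ducts form. Msx1 and Msx2 (homeodomain), Gata2 (zinc finger) and Sox17 (HMG box) are used again in the adult uterine lining, where they bear on implantation and on the response to progesterone. Hand1 is a basic helix-loop-helix factor best known from the heart and the trophoblast, and its relative Hand2 is a factor of the uterine stroma. In bulk tissue, fewer cells of a type and less RNA per cell cannot be told apart.

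Levels are in FPKM, fragments scaled by gene length and by library size, and the library sizes behind them were 47800000 to 67300000 fragments, rounded. Foxl2 itself was at 11.1, 19.3 and 12.9 FPKM in controls 1, 2 and 4, and at 12.7, 14.3, 14.8 and 17.2 FPKM in replicates 1 to 4 of the Foxl2-LSL group. The controls enclosed the Foxl2-LSL values, with a difference of 0.06 on the log2 scale (limma adjusted p = 0.818). Foxl2os, the neighbouring gene on the opposite strand, which shares 12 exon bases with Foxl2, fell from 27.9 ± 8.29 to 5.71 ± 0.841 FPKM (mean ± SD, n = 3 and n = 4; log2 fold change -2.08, limma adjusted p = 0.000345). The deposited values therefore do not show the rise in Foxl2 that the title names. Whether transcripts of the Foxl2LsL allele count towards the listed Foxl2 gene is not given in the sources used here. Every direction below is that between libraries as labelled. Markers of uterine epithelium, stroma and smooth muscle were present in every library. Control 2 stood apart for Ovgp1, the oviductal glycoprotein gene, at 291 FPKM against 1.65 to 19.7 FPKM in the other libraries. Control 4 had the lowest summed level of 8 epithelial markers (785 FPKM, against 979 to 1421 FPKM) and the highest of 8 stromal markers (2221 FPKM, against 1192 to 1949 FPKM). The epithelial marker Cldn3 was instead highest in control 4, at 194 FPKM. Fat cell markers differed within groups, with Adipoq at 15.2 and 27.3 FPKM in Foxl2-LSL libraries 2 and 3 and between 0 and 9.23 FPKM elsewhere.

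Of the 10 members, 8 had a mean of at least 1 FPKM and were tested, and 4 of those 8 differed between the labelled genotypes. Wt1, Msx1 and Gata2 fell and Pax8 rose, while Msx2, Emx2, Pax2 and Sox17 did not pass the test. Over all 13334 tested genes 40.6% passed (limma on log2(FPKM + 1), with p adjusted by the Benjamini-Hochberg method and a threshold of 0.05), 23.9% lower and 16.7% higher, so 4 of 8 is near the background. The count was 2 without Foxl2-LSL 1 and also 2 without Foxl2-LSL 4. The median log2 fold change was -0.06 over the 8 members and -0.05 over all tested genes. The same 4 members were those whose groups did not overlap, which held for 47.6% of all tested genes. Each of the 8 had means above that filter in both groups.

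**Figure D1:**
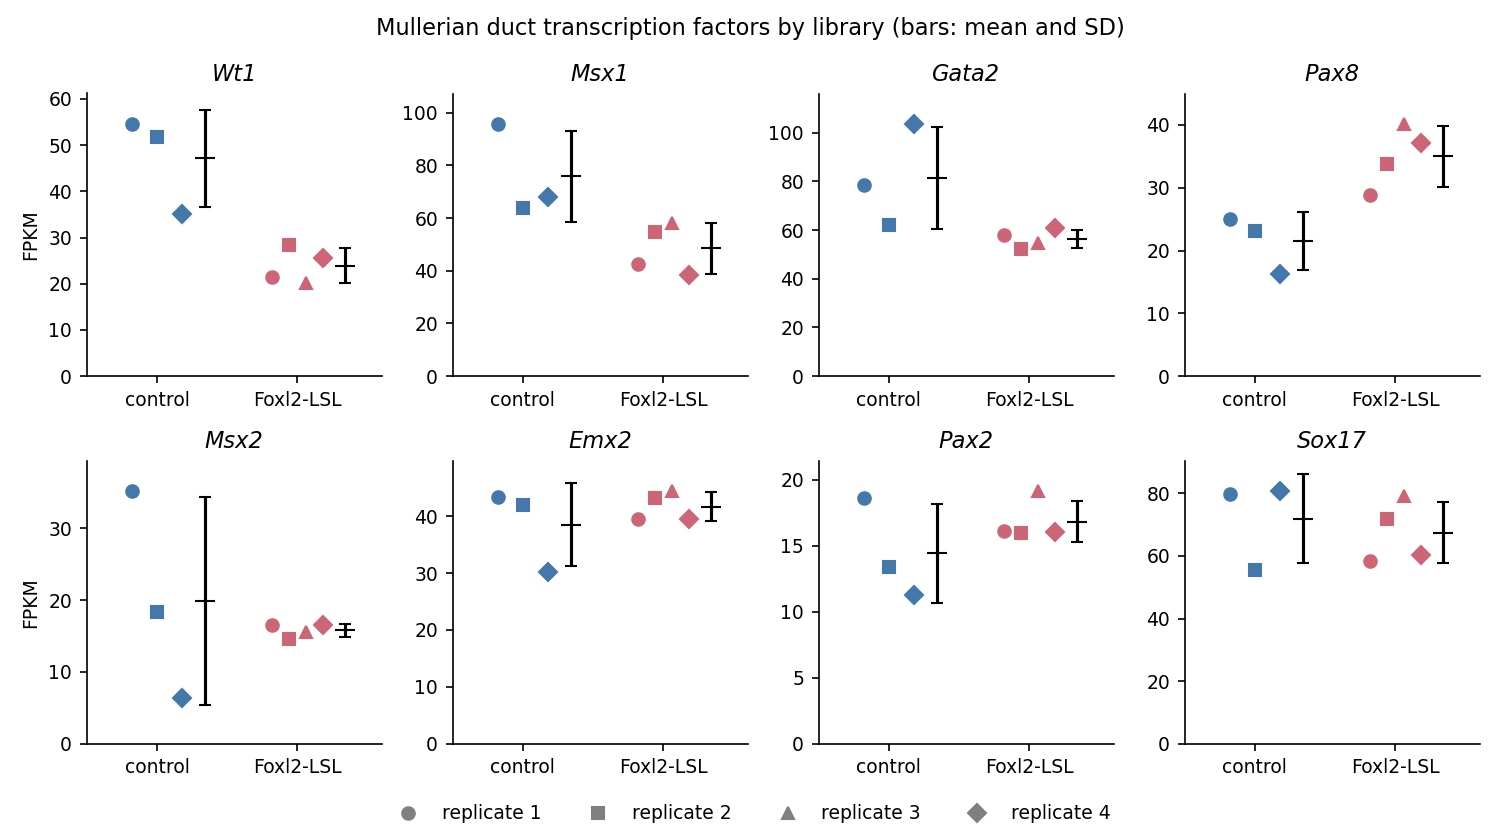
FPKM (vertical axis, from 0) of the 8 tested Müllerian duct factors in each library, with replicate numbers as symbols and the mean and SD of 3 control and 4 Foxl2-LSL libraries as bars. The groups are separate for Wt1, Msx1, Gata2 and Pax8, and the 3 control values of Msx2 run from 6.32 to 35.2 FPKM.

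The promoters of Msx1, Gata2 and Pax8 are shown because these 3 genes changed and a window outside their own exons was at hand. Each is the 250 bases before a RefSeq transcription start (GRCm38.p6), 5′ to 3′ on the strand of the gene, at chr5:37824586-37824835 (minus strand), chr6:88193641-88193890 (plus) and chr2:24475600-24475849 (minus). Capitals mark the letters CCAAT, the box bound by the general factor NF-Y, or their complement ATTGG.
Msx1: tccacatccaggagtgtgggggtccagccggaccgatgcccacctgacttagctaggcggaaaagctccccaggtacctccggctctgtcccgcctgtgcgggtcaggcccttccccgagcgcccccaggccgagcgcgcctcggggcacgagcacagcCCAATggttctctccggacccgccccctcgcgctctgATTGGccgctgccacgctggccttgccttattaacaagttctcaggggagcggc
Gata2: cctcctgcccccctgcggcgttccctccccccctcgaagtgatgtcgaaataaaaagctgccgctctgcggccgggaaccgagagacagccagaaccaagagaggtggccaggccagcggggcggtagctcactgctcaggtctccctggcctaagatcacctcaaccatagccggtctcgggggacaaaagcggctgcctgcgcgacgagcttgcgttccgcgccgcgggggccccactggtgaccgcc
Pax8: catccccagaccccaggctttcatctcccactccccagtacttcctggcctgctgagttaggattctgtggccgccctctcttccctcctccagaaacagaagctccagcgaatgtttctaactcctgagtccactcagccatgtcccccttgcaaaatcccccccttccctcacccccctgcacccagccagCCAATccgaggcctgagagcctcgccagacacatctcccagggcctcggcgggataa
The Msx1 window held both orientations, the Pax8 window held CCAAT, and this Gata2 window held neither. Windows were at hand for 7 of the 10 members, 10 windows in all, and 6 of the 10 held CCAAT on either strand, against 33.8% of 32851 promoter windows of that length. The 6 windows belonged to 6 different genes, among them Emx2, Msx2, Lhx1 and the other Gata2 start. The forkhead core TGTTTA was found on either strand in 0 of the 10 windows and in 12.0% of all windows. GC content was 68% at Msx1, 67.2% at Gata2 and 60.4% at Pax8, above the median of 52.4%, and the Pax8 window held 6 CpG against 20 and 22 in the other two. Both motifs were chosen after expression values were seen, and a match or its absence is a description of letters only.

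Wt1, which encodes the Wilms tumour zinc finger factor of urogenital mesenchyme and mesothelium, fell. It stood at 54.6, 51.7 and 35.1 FPKM in controls 1, 2 and 4, and at 21.4, 28.4, 20.1 and 25.7 FPKM in replicates 1 to 4 of the Foxl2-LSL group. Every control lay above every Foxl2-LSL library, and the lowest control was replicate 4. The means were 47.2 ± 10.5 and 23.9 ± 3.80 FPKM (mean ± SD, n = 3 and n = 4), so the control level was 1.97 times that of the other group. The log2 fold change was -0.94 (SE 0.18, 95% interval -1.35 to -0.53, limma adjusted p = 0.00515). An exact permutation test (two-sided) gave p = 0.0571, the smallest value that 3 against 4 libraries allow. This call stayed past the threshold under all 19 alternatives, with adjusted p from 0.00111 to 0.0375 (limma).

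Wt1 lies on chromosome 2 (105126529 to 105173616, plus strand, GRCm38, GENCODE M21). The separately listed Wt1os, named for the opposite strand of the locus, also fell, from 2.59 ± 0.550 to 1.41 ± 0.108 FPKM (mean ± SD, n = 3 and n = 4; log2 fold change -0.56, limma adjusted p = 0.00843). Whether reads were assigned by strand is not given in the sources used here, so signal from opposite strands cannot be told apart where such genes overlap. Mesothelial markers followed Wt1 in some libraries only. The summed level of 5 markers was 51.6 to 89.1 FPKM in controls and 27.3 to 93.3 FPKM in Foxl2-LSL libraries. It was lowest in Foxl2-LSL 3, where Wt1 was lowest too. It was highest in Foxl2-LSL 4, where Wt1 was below every control. None of the 5 (Msln, Upk3b, Upk1b, Lrrn4, Gpm6a) passed the test. With the mean of those markers as a covariate, the log2 fold change of Wt1 was -0.86. Among 8 stromal markers, Hoxa11, Hand2 and Vim fell and Dcn rose, with a summed level of 1192 to 2221 FPKM in controls and 1701 to 1949 FPKM in Foxl2-LSL libraries. With the stromal mean as a covariate Wt1 was at -1.29. That mean (log2 scale) was 6.42 to 7.43 in controls and 6.24 to 6.44 in Foxl2-LSL libraries, so it partly follows the groups.

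Pax8, the paired-box factor that marks Müllerian epithelium, rose. Controls 1, 2 and 4 were at 25.1, 23.1 and 16.2 FPKM, and replicates 1 to 4 of the Foxl2-LSL group at 28.9, 33.8, 40.2 and 37.1 FPKM. All 4 Foxl2-LSL values lay above the 3 controls, with the nearest pair at 28.9 and 25.1 FPKM. The mean went from 21.5 ± 4.62 to 34.99 ± 4.86 FPKM (mean ± SD, n = 3 and n = 4), a level 1.63 times as high. The log2 fold change was 0.69 (SE 0.16, 95% interval 0.31 to 1.07, limma adjusted p = 0.0131; two-sided exact permutation p = 0.0571). Its call was kept without each library in turn, where the log2 fold change ran from 0.51 to 0.81. Pax8 shares 367 exon bases with Gm13415, a gene on the opposite strand that is not in the deposited table. Use of strand is not given, so signal from the opposite strand cannot be told apart from that of Pax8 there.

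Epithelial content was examined beside Pax8 (chromosome 2, 24420560 to 24475599, minus strand, GRCm38). Of 8 epithelial markers Krt18 alone passed the test, higher in Foxl2-LSL libraries, and the summed level was 785 to 1370 FPKM in controls and 1042 to 1421 FPKM in the other group. Relative to the mean of those 8 markers (log2 scale), Pax8 lay at -2.45 to -2.09 in controls and at -2.24 to -1.57 in Foxl2-LSL libraries. These ranges overlapped, and the difference was 0.43 (two-sided exact permutation p = 0.171). With the stromal marker mean as a covariate, the log2 fold change of Pax8 was 0.36 (limma adjusted p = 0.180, against 0.00882 to 0.0861 under the other alternatives). The stromal mean partly follows the groups, so this fit cannot separate stromal content from genotype. Without control 2, the library with high Ovgp1, Pax8 was at 0.75 and Wt1 at -0.86, both past the threshold.

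Pax2, the closest relative of Pax8 among the members, did not pass. It was at 18.6, 13.4 and 11.3 FPKM in controls 1, 2 and 4, and at 16.1, 16.0, 19.1 and 16.0 FPKM in replicates 1 to 4 of the Foxl2-LSL group. Control 1 lay within the range of the Foxl2-LSL libraries and the other controls below it. Pax2 differed by 0.23 on the log2 scale (95% interval -0.13 to 0.59, limma adjusted p = 0.264), and without control 1 it was 0.42 with an adjusted p of 0.0237 (limma; over all alternatives 0.0237 to 0.677). The ratio of Pax8 to Pax2 FPKM was 1.35, 1.72 and 1.44 in controls 1, 2 and 4, and 1.79, 2.11, 2.10 and 2.32 in Foxl2-LSL libraries 1 to 4. These groups did not overlap, although the highest control and the lowest Foxl2-LSL value were close. The difference of log2 ratios was 0.46 (two-sided exact permutation p = 0.0571, 0.114 after Benjamini-Hochberg adjustment over 4 ratios), where 0.0571 is the smallest p this design allows, so the test could not pass 0.05. The 4 ratios include Hand2 to Hand1, which follows Hand2 alone because Hand1 was at or near 0, and which had the same p of 0.0571.

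Wt1 and Pax8 changed places in rank, a pair chosen after their values were seen. Wt1 exceeded Pax8 in each control, with FPKM ratios of 2.18, 2.24 and 2.16 in replicates 1, 2 and 4. Pax8 exceeded Wt1 in each Foxl2-LSL library, where the ratio of Wt1 to Pax8 was 0.741, 0.840, 0.501 and 0.691 in replicates 1 to 4. The control ratios lay close together although both genes were lower in control 4 than in the other controls. The difference of log2 ratios was -1.63, given as a description.

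**Figure D2:**
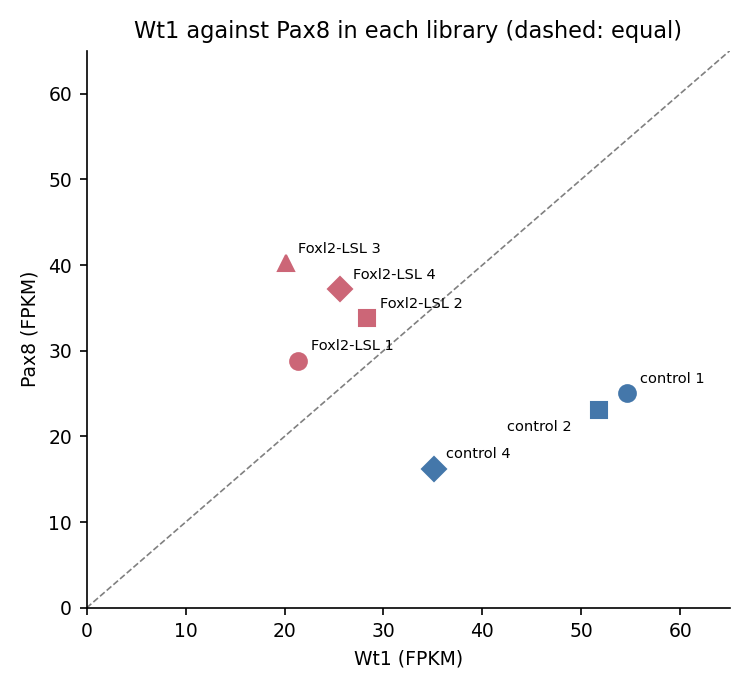
Wt1 (horizontal axis) against Pax8 (vertical axis), both in FPKM from 0, with 1 point per library and a dashed line where both are equal. The 3 controls lie below the line and the 4 Foxl2-LSL libraries above it, between 20.1 and 28.4 FPKM of Wt1.

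Emx2, a homeodomain factor that acts when the urogenital ducts form, did not pass the test. Controls 1, 2 and 4 were at 43.4, 42.1 and 30.1 FPKM, and replicates 1 to 4 of the Foxl2-LSL group at 39.6, 43.3, 44.4 and 39.6 FPKM. All libraries except control 4 lay between 39.6 and 44.4 FPKM. On the log2 scale Emx2 differed by 0.13, with a 95% interval of -0.17 to 0.43 (limma adjusted p = 0.464), and without control 4 by -0.0364. Emx2 (chromosome 19, 59458372 to 59465357, plus strand, GRCm38) shares 264 exon bases with its antisense neighbour Emx2os, which was at 6.89 ± 0.445 and 7.97 ± 0.830 FPKM (mean ± SD, n = 3 and n = 4).

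Lhx1, which is required for the duct to elongate in the embryo, was at or near 0 in these adult libraries. It had 3 fragments in control 2, 1 in each of Foxl2-LSL 2 and Foxl2-LSL 3, and 0 in the rest. A count of 0 allows up to 3 fragments, which is 0.0107 to 0.0151 FPKM for Lhx1 in these libraries (counting error only). Hand1 had 1 fragment in control 2 and 0 in the other libraries, where 3 fragments would be 0.0235 to 0.0331 FPKM. No difference was detectable for either gene at this depth, and no fold change is given.

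Msx1 fell, and Msx2 differed more within the controls than between groups. These muscle segment homeobox factors mark the uterine luminal epithelium before implantation. Msx1 was at 95.8, 63.8 and 67.9 FPKM in controls 1, 2 and 4, and at 42.5, 54.8, 58.1 and 38.3 FPKM in replicates 1 to 4 of the Foxl2-LSL group. The groups were separate by a narrow gap between 58.1 and 63.8 FPKM. The means were 75.8 ± 17.4 and 48.4 ± 9.51 FPKM (mean ± SD, n = 3 and n = 4). The log2 fold change was -0.63 (SE 0.19, 95% interval -1.07 to -0.19, limma adjusted p = 0.0311; two-sided exact permutation p = 0.0571). Msx1 lost its call without control 1 (log2 fold change -0.45), without Foxl2-LSL 1 (-0.58) and without Foxl2-LSL 4 (-0.53), with adjusted p of 0.0824, 0.0716 and 0.0705 there and 0.0187 to 0.0824 over all alternatives (limma). Relative to the mean of the 8 epithelial markers, Msx1 lay at -0.66 to -0.22 in controls and at -1.75 to -0.89 in Foxl2-LSL libraries on the log2 scale, with no overlap. Msx1os, listed separately, was at 12.2 ± 2.81 and 10.6 ± 1.95 FPKM (mean ± SD, n = 3 and n = 4) and did not pass (adjusted p = 0.459, limma).

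Msx2 was at 35.2, 18.3 and 6.32 FPKM in controls 1, 2 and 4, and at 16.5, 14.6, 15.6 and 16.6 FPKM in replicates 1 to 4 of the Foxl2-LSL group. The controls spanned 5.56-fold and enclosed all Foxl2-LSL values, which spanned 1.13-fold. The coefficient of variation was 72.7% in controls, higher than for 98.4% of tested genes, and 5.85% in Foxl2-LSL libraries, higher than for 22.3%. Counting error was at most 3.34%, since at least 897 fragments lay on Msx2. Msx2 differed by -0.04 on the log2 scale with a 95% interval of -1.10 to 1.02 (limma adjusted p = 0.954). It was -0.66 without control 4 (adjusted p = 0.0499, limma) and 0.50 without control 1 (adjusted p = 0.284, limma), so its sign depended on single controls (adjusted p 0.00643 to 0.997 over all alternatives). The difference of the log2 Msx1 to Msx2 ratio was -0.59 (two-sided exact permutation p = 0.343, and 0.343 adjusted over 4 ratios).

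The tested genes whose log2(FPKM + 1) was most like that of Msx2 over the 7 libraries were Rps6ka3 (Pearson r 0.992) and Bcam (0.980). Wnt7a, a WNT ligand of the luminal epithelium, was at 77.6, 33.2 and 6.002 FPKM in controls 1, 2 and 4, and at 37.6 to 42.5 FPKM in Foxl2-LSL libraries. Epcam, an epithelial adhesion gene, was at 171, 122 and 61.2 FPKM in those controls and at 106 to 164 FPKM in Foxl2-LSL libraries. Msx2, Wnt7a and Epcam were thus all highest in control 1 and lowest in control 4 among the controls. Of the 8 epithelial markers Cldn3 alone did not share that order, at 126, 80.2 and 194 FPKM in controls 1, 2 and 4. Relative to the 8 epithelial markers Msx2 still ranged from -3.45 to -1.98 in controls and from -3.01 to -2.73 in Foxl2-LSL libraries on the log2 scale.

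**Figure D3:**
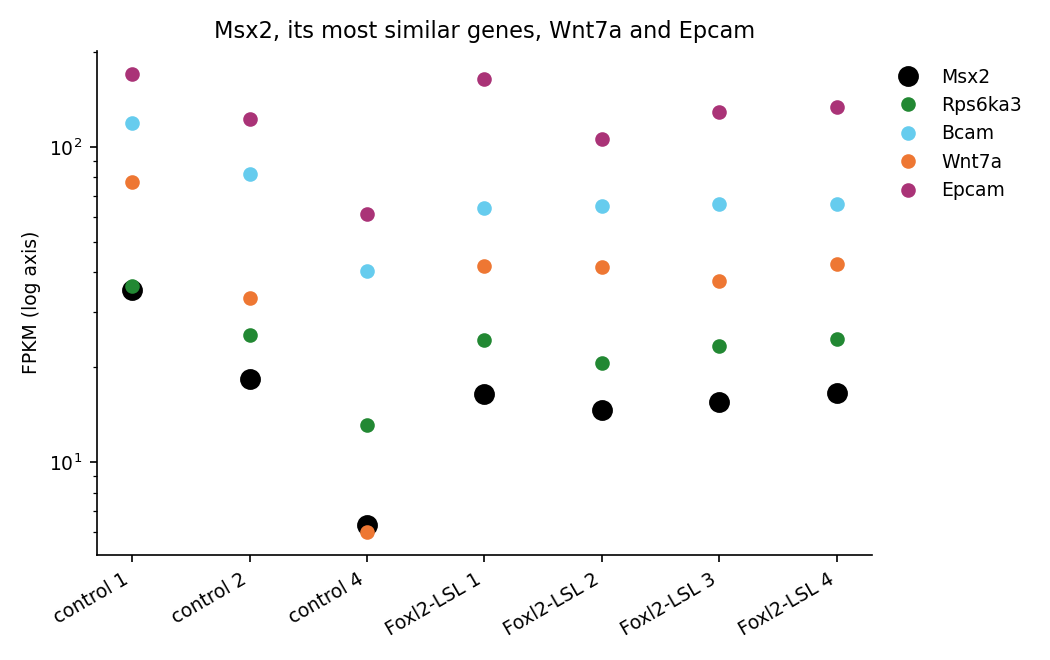
FPKM on a log axis for Msx2, for Rps6ka3 and Bcam (the genes most like it), and for Wnt7a and Epcam, with 1 column of points per library. All 5 genes are lowest in control 4, where Msx2 is at 6.32 FPKM. Msx2 lies between 14.6 and 16.6 FPKM in the 4 Foxl2-LSL libraries.

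Gata2, a zinc finger factor that acts with the progesterone receptor in the uterus, fell by a call close to the threshold. It was at 78.5, 61.9 and 103.6 FPKM in controls 1, 2 and 4, and at 58.0, 52.4, 54.6 and 60.9 FPKM in replicates 1 to 4 of the Foxl2-LSL group. Control 2 lay just above the highest Foxl2-LSL library, and control 4 was the highest of all. The mean was 81.3 ± 21.02 against 56.5 ± 3.72 FPKM (mean ± SD, n = 3 and n = 4). The log2 fold change was -0.49 (SE 0.16, 95% interval -0.86 to -0.12, limma adjusted p = 0.0422; two-sided exact permutation p = 0.0571). Leaving out control 1, control 4 or any of the 4 Foxl2-LSL libraries took the adjusted p to between 0.0652 and 0.0960, and without control 2 it was 0.0123 (limma; 0.0123 to 0.408 over all alternatives). Without control 4 the log2 fold change was -0.30.

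Gata2 is also expressed by endothelial and mast cells, so their markers were set beside it. Of 9 endothelial markers 6 fell (Pecam1, Cdh5, Kdr, Tie1, Emcn and Erg) and 2 rose (Vwf and Cldn5), and their summed level was 135 to 172 FPKM in controls and 111 to 129 FPKM in Foxl2-LSL libraries, highest in control 4. The summed level of 6 mast cell markers was 8.71 to 14.9 FPKM in controls and 16.0 to 26.5 FPKM in the other group, where Kit alone of the 5 tested rose. Kit was a large part of these sums, at 4.66 to 6.91 FPKM in controls and 9.72 to 13.6 FPKM in the other group. The groups overlapped for Cpa3, Cma1, Mcpt4 and Tpsb2. The part of these cells in the level of Gata2 was not tested. Pgr was at 33.5 ± 7.56 and 25.4 ± 1.14 FPKM (mean ± SD, n = 3 and n = 4) and did not pass (log2 fold change -0.36, limma adjusted p = 0.0845), though without control 4 it did (-0.55, limma adjusted p = 0.00167).

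Sox17, an HMG box factor of uterine epithelium and of endothelium, did not pass. It was at 79.7, 55.5 and 80.7 FPKM in controls 1, 2 and 4, and at 58.5, 71.7, 79.3 and 60.5 FPKM in replicates 1 to 4 of the Foxl2-LSL group. The controls enclosed all Foxl2-LSL values. Sox17 differed by -0.08 on the log2 scale with a 95% interval of -0.46 to 0.29 (limma adjusted p = 0.712), and its sign turned, at 0.000609 and 0.0097, without control 1 or control 4. The ratio of Gata2 to Sox17 FPKM was 0.985, 1.116 and 1.28 in controls 1, 2 and 4, and 0.992, 0.731, 0.689 and 1.01 in Foxl2-LSL libraries 1 to 4. These groups overlapped too (difference of log2 ratios -0.41, two-sided exact permutation p = 0.171, 0.229 after adjustment over 4 ratios). Sox17 shares 804 exon bases with Gm37587, a gene on the opposite strand that is not in the deposited table, so the same limit applies as for Pax8.

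**Figure D4:**
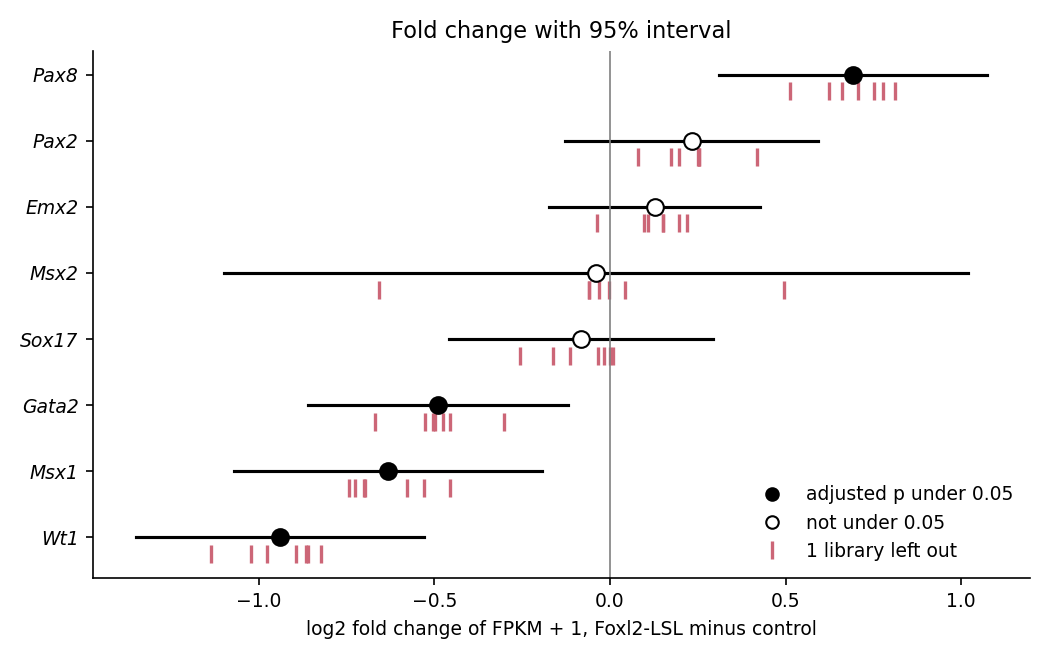
Log2 fold change of FPKM + 1 (Foxl2-LSL minus control) of the 8 tested factors with 95% intervals from limma. Filled points have an adjusted p under 0.05, and red ticks are the values with 1 library left out. Those of Msx2 run from -0.66 to 0.50 and those of Wt1 stay between -1.13 and -0.82.

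By level, which FPKM allows between genes, the order of control means was Gata2, Msx1, Sox17 (71.9 ± 14.3 FPKM; SD, n = 3), Wt1, Emx2 (38.5 ± 7.31), Pax8, Msx2 (19.9 ± 14.5) and Pax2 (14.4 ± 3.77). In Foxl2-LSL libraries the order was Sox17 (67.5 ± 9.77 FPKM; SD, n = 4), Gata2, Msx1, Emx2 (41.7 ± 2.499), Pax8, Wt1, Pax2 (16.8 ± 1.54) and Msx2 (15.8 ± 0.925). Gata2, Msx1 and Sox17 overlapped one another in controls, as did Wt1 with Emx2 and Msx2 with its neighbours Pax8 and Pax2. In the other group Sox17 overlapped with Gata2, Gata2 with Msx1, Msx1 with Emx2, Emx2 with Pax8, and Pax2 with Msx2. Within the controls all 8 factors varied more than the median tested gene (coefficient of variation 11.5%), and within Foxl2-LSL libraries 4 of 8 did (median 9.59%). Control 4 was the lowest control for Msx2, Emx2, Pax2, Pax8 and Wt1 and the highest for Gata2 and Sox17.

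Relatives from the same families were read from a list of 19 genes, of which 12 lay below the filter and 7 were tested. The test was passed by 3 of the 7 (42.9%), near the 40.6% over all tested genes, and 1 of the 3, Gata3, reached the filter through the Foxl2-LSL group alone. Hand2 fell from 27.1 ± 7.84 to 5.08 ± 0.681 FPKM (mean ± SD, n = 3 and n = 4), a log2 fold change of -2.18 (limma adjusted p = 0.000295). The Hand2 to Hand1 ratio follows Hand2, since Hand1 was at or near 0. Gata3, a relative of Gata2, was at 0.278 ± 0.0586 and 3.98 ± 0.550 FPKM (mean ± SD, n = 3 and n = 4), given as levels only because of that filter. Sox18, an endothelial relative of Sox17, fell from 14.5 ± 1.79 to 9.84 ± 1.24 FPKM (mean ± SD, n = 3 and n = 4; log2 fold change -0.52, limma adjusted p = 0.0113), a call lost with the stromal covariate (-0.41, limma adjusted p = 0.110). Sox7, of the same SOX group and named with its values known, was at 26.7, 15.3 and 5.54 FPKM in controls 1, 2 and 4 and at 25.1 to 38.5 FPKM in Foxl2-LSL libraries, and did not pass (limma, adjusted p = 0.0551). The genes Msx3, Emx1, Pax5 and Lhx5 were each below 0.2 FPKM in every library.

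Other transcription factors of the duct and uterus numbered 20 in the list, 15 of them tested, and 13 passed (86.7%, against 40.6% over all tested genes), 7 higher and 6 lower. Of the 7, 2 reached the filter through the Foxl2-LSL group alone. Hoxa10, a homeobox gene that gives the uterus its segmental identity, fell from 77.9 ± 41.1 to 25.4 ± 2.47 FPKM (mean ± SD, n = 3 and n = 4; log2 fold change -1.45). Hoxa11 fell by 1.90 on the log2 scale. With the stromal covariate, whose markers include Hoxa11, both kept their calls at -0.57 and -1.05. Foxa2, a factor of uterine glands, fell from 5.71 ± 1.03 to 1.36 ± 0.209 FPKM (mean ± SD, n = 3 and n = 4). Hoxa9 and Osr1 fell as well, and Hand2 is counted here too. Dlx5, Dlx6 and Tcf21 were among those that rose, named after their values were seen. Dlx5 was close to the threshold (limma adjusted p = 0.046), and its groups overlapped. Dlx6 went from 22.5 ± 8.91 to 38.9 ± 2.29 FPKM (mean ± SD, n = 3 and n = 4). The count was 8 without control 2. The median log2 fold change of the list was 0.36, against -0.05 over all tested genes.

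Signals and receptors of patterning numbered 22, with 19 tested, and 9 passed (47.4%, near the 40.6% over all tested genes), 3 higher (Bmpr1a, Ret and Fgf10) and 6 lower. Bmpr1a and Fgf10 were close to the threshold (limma adjusted p = 0.0496 and 0.0488), and 1 gene in place of 3 was higher after rescaling to a common sum. Ihh, the hedgehog ligand made by uterine epithelium under progesterone, fell from 23.4 ± 4.94 to 3.20 ± 0.637 FPKM (mean ± SD, n = 3 and n = 4; log2 fold change -2.53). Its receptor gene Ptch1 (-1.15) and the hedgehog effector Gli1 (-2.31) fell too, as did Smo. The call for Ptch1 was lost with the stromal covariate (-0.48, limma adjusted p = 0.115). Bmp7 fell by 2.53 on the log2 scale. Wnt5a, a stromal WNT ligand, fell from 38.4 ± 7.95 to 25.9 ± 0.890 FPKM (mean ± SD, n = 3 and n = 4; log2 fold change -0.53, limma adjusted p = 0.0168). The call for Wnt5a was lost without control 2 (-0.47, limma adjusted p = 0.0647) and with the stromal covariate (-0.19, limma adjusted p = 0.209). Wnt7a, at 0.65 (limma adjusted p = 0.483) and at -0.31 without control 4, and Wnt4, at 0.09 (limma adjusted p = 0.918), did not pass. The median over the 19 genes was 0.09.

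**Figure D5:**
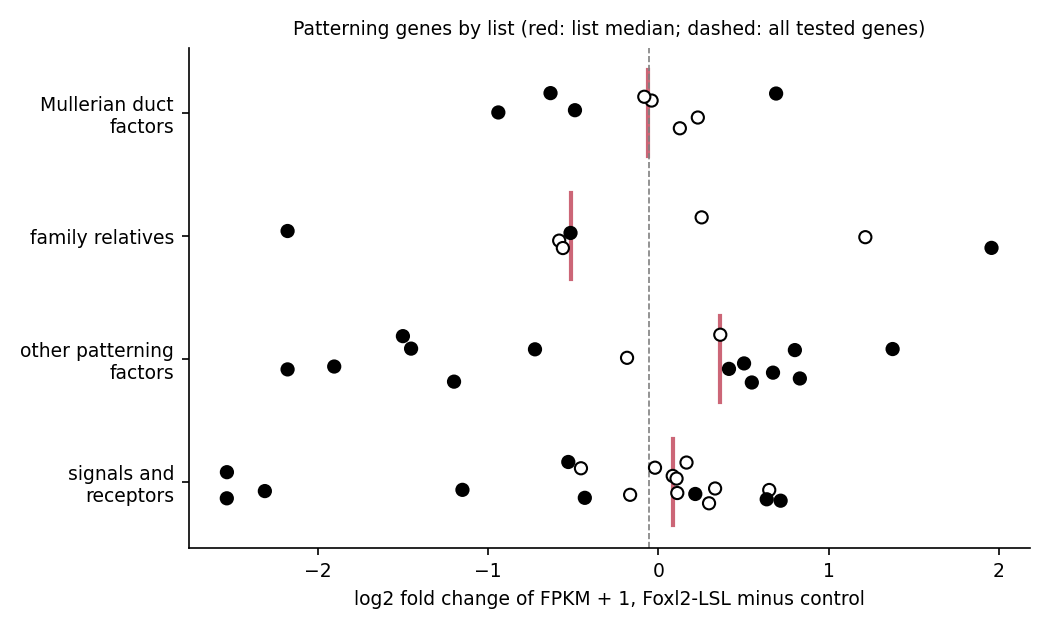
Log2 fold change of FPKM + 1 (horizontal axis, Foxl2-LSL minus control) of the tested genes of each list, with filled points for an adjusted p under 0.05, a red line at the list's median and a dashed line at the median of all tested genes. The Müllerian duct factors lie between -0.94 and 0.69. Among the family relatives Hand2 is lowest, at -2.18, and Gata3, which reached the filter through the Foxl2-LSL group alone, is highest.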

How the data were processed

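RNA was extracted with TRIzol and sequenced with Illumina protocols, per the labels' protocols. The submitters' processing notes name STAR 2.5.2b, featureCounts 1.5.0-p1 and mm10, with no role or order; annotation and use of strand are not given in the sources used here. The authors deposited 1 table of FPKM per gene and library (3 controls, 4 Foxl2-LSL), with another value, the gene length in bases. In each library the product of FPKM and length took steps of 1 size (100% of low values within 0.1 of a whole number of steps, 20% by chance), which gave library sizes and fragments per gene.

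The filter asked for a mean of 1 FPKM or more over the 7 libraries (13334 genes kept, 11630 below). Kept genes were compared as log2(FPKM + 1) with limma 3.58.1 in R 4.3.3 (intensity trend, no block) and Benjamini-Hochberg adjustment, threshold 0.05; this scale understates changes of low genes. Single values had two-sided exact permutation tests over the 35 splits (scipy 1.17.1). The limma step was tested on simulated data. Coordinates are from GENCODE M21 (GRCm38) by symbol and promoters from RefSeq. The members, lists and tests were chosen with earlier results of these data known. All members were named, with up to 4 genes per list past the threshold with the largest change, the 2 genes most like each member, Foxl2, and Hoxa10, Wnt5a, Wnt7a, Ihh, Pgr, Foxa2 and Hand2; further genes of the lists were named after their values were seen, and some are not reported here. Alternatives changed pseudocount, filter, scaling, trend, test, pairing, libraries and, after seeing the data, marker covariates.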

Additional observations from a re-analysis of the deposited data

Results flagged for a closer look

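Pax2 in Foxl2-LSL 3, at 19.1 FPKM, lay far from the other Foxl2-LSL libraries, which were at 16.0 to 16.1 FPKM. It was the 1 of 27 groups of 4 checked to do so, where chance gives about 1 in 20. Foxl2-LSL 3 also had the highest Pax8 (40.2 FPKM) and Emx2 (44.4 FPKM) of all libraries, and the lowest summed mesothelial markers (27.3 FPKM) and the highest summed fat cell markers (51.0 FPKM). Without that library Pax2 had a log2 fold change of 0.17 and did not pass.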

How the results depend on the processing

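Of 19 alternatives, 3 (marker covariates) were chosen after seeing the data, as was the Wt1 to Pax8 ratio. Wt1 kept its call under all 19, and no ratio turned direction. The labels do not say whether the numbers shared by both groups (1, 2 and 4) pair the libraries. Same-numbered deviations correlated at 0.228, -0.0306 and -0.112, and not every library correlated best with its own number. With so few libraries these correlations cannot tell whether the libraries were paired. The replicate block also dropped Foxl2-LSL 3, which has no control of its number: 3243 genes passed in place of 5409 and 1 duct factor in place of 4, with Msx1 (-0.73), Pax8 (0.62), Gata2 (-0.47) and Wnt5a (-0.54) lost. Without Foxl2-LSL 3 and with no block, 3975 genes and 3 duct factors passed. Without a filter 2 of the duct factors passed, and Msx1 (-0.63) and Gata2 (-0.49) were lost. Msx1 was also lost with quantile normalization (-0.56) and Gata2 with median centring (-0.44), where Msx2 turned to 0.0073 and 0.0126. The share of calls that were higher was 41.1%, and 49.2% with quantile normalization or 50.4% with median centring. The causes were not tested.

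The stromal markers include Vim, Hoxa11 and Hand2, which fell, and Dcn, which rose, and their mean partly follows the groups. A fit with that covariate therefore cannot separate stromal content from genotype. With the stromal covariate Gata2 (-0.25), Pax8 (0.36), Ptch1, Sox18 and Wnt5a lost their calls, and Msx2 passed at -1.33. Emx2 (-0.18), Pax2 (-0.16) and Wnt7a (-1.31) turned, and 8 of the other patterning factors passed. With the epithelial covariate Gata2 was at -0.43 and lost its call, Wnt7a turned to -0.14 and 5 family relatives passed in place of 3. With the mesothelial covariate Gata2 lost its call at -0.49 and Msx2 turned to 0.13.

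With 1 library left out in turn, 3853 to 5328 genes, 2 to 4 duct factors, 3 to 4 family relatives, 8 to 13 other patterning factors and 6 to 10 signals passed. The log2 fold change ranged from -1.13 to -0.82 for Wt1, 0.51 to 0.81 for Pax8, -0.74 to -0.45 for Msx1, -0.67 to -0.30 for Gata2, -0.66 to 0.50 for Msx2, 0.0812 to 0.42 for Pax2, -0.0364 to 0.22 for Emx2, -0.26 to 0.0097 for Sox17 and -0.10 to 0.28 for Foxl2. Wnt7a ranged from -0.31 (without control 4) to 1.43. Of 245 values for 13 named genes (12 of the lists, and Pgr), 234 kept direction and call. The others belong to Wnt5a, Wnt7a and Pgr (3 each), Ptch1 and Sox18 (1 each). Some of the 13 were named because they passed with the largest changes in these same data. They include Gata3, which reached the filter through the Foxl2-LSL group alone. The count of 234 is therefore a description and no measure of robustness. Lhx1 and Hand1 had at most 3 fragments in any library, where low depth and absent expression cannot be told apart. For the other members counting error was at most 3.34%, smaller than the spread between libraries within each group. What sets that spread was not tested.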

Other observations

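Genes most like each tested factor over the 7 libraries are given as a description, since the libraries form 2 groups. For Wt1 they were Phrf1 (Pearson r 0.997) and Rnase4 (0.994), and 1068 genes had an r above 0.9 with Wt1. For Pax8 they were Etl4 (0.992) and A730056A06Rik (0.988), for Msx1 Eif4enif1 (0.985) and Habp4 (0.973), and for Gata2 Glyr1 (0.985) and Fblim1 (0.981). Pax2 was most like Fcho1 (0.987) and Smad6 (0.978), and Emx2 most like BC052040 (0.985) and Krt15 (0.980). Sox17 stood at the other end, with Tubg2 (0.963) and Lurap1 (0.958) and only 6 genes above 0.9.

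Markers of other cell types and of neighbouring tissues varied between libraries. Of 4 tested oviduct markers Tppp3 and Foxj1 fell, Foxj1 to 0.995 FPKM, below the filter, while the ciliary gene Ccdc39 was at 3.56 and 4.08 FPKM (log2 fold change 0.15) and did not pass, nor did Ovgp1. The summed level of 5 oviduct markers was 429 FPKM in control 2, 118 and 133 FPKM in controls 1 and 4, and 68.3 to 84.6 FPKM in Foxl2-LSL libraries. Outside control 2 most of that sum was Tppp3, at 111 and 108 FPKM in controls 1 and 4 and 48.5 to 68.9 FPKM in Foxl2-LSL libraries. Ovgp1 was at 1.65 and 19.7 FPKM in controls 1 and 4, which enclosed the 8.45 to 14.8 FPKM of the Foxl2-LSL libraries. The 6 ovary markers summed to 5.13 to 10.3 FPKM in all libraries, with 5 of 6 below the filter. All 8 cell cycle markers fell, from a summed 154 to 308 FPKM to 52.1 to 81.7 FPKM, and 3 of 3 tested gland markers (Foxa2, Cxcl15 and Aldh1a1) fell. Smooth muscle markers summed to 839 to 1660 FPKM in controls and 1487 to 1933 FPKM in Foxl2-LSL libraries, with Myh11, Tagln and Lmod1 higher. Leukocyte markers summed to 21.7 to 32.1 and 34.3 to 70.1 FPKM, with Csf1r and Itgam higher, while Ptprc, the general leukocyte gene, was at 3.65 and 3.07 FPKM (log2 fold change -0.16) and did not pass. Of 5 stratified epithelium markers the 1 tested, Krt13, rose. Their part in the levels of the Müllerian duct factors was not tested.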
